A study of Mus musculus with 23 samples.

Results

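The genes described here are those of protein kinase C (PKC), followed in the CA3 region of the hippocampus of UBB+1 tg and wild-type mice. Members were all probe sets that the array annotation assigns to 1 gene alone, where that gene is Prkca, Prkcb, Prkcd, Prkce, Prkch, Prkcq, Prkci or Prkcz. These are 8 of the 18192 genes that a probe set names alone. They came to 20 probe sets among 45136 tested: 13 of 22625 on the MOE430A array, which cover all 8 genes, and 7 of 22511 on the MOE430B array, which cover 6 genes.

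UBB+1 tg mice were heterozygous for a transgene of the human frameshifted ubiquitin B UBB+1, an inhibitor of the proteasome, in 1 transgenic line, under the CamKIIα promoter, a promoter active in forebrain neurons after birth. Wild-type mice were littermates without the transgene, on the same C57BL/6J background, and all mice were 18 months old. The study compared gene expression in CA3 tissue cut by laser from stained sections, with RNA amplified in repeated rounds before hybridisation. UBB+1 tg mice gave 6 arrays of each kind, and wild-type mice gave 5 MOE430A and 6 MOE430B arrays, 1 animal an array. In such bulk tissue, fewer cells of a type and less RNA per cell cannot be told apart. The labels name no sex.

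Protein kinases C are serine/threonine kinases that pass on signals of receptors coupled to phospholipase C. The conventional isoforms, encoded by Prkca and Prkcb, need calcium and diacylglycerol. The calcium-independent isoforms, encoded by Prkcd, Prkce, Prkch and Prkcq, respond to diacylglycerol alone. The atypical isoforms, encoded by Prkci and Prkcz, respond to neither and are steered by protein partners. In neurons of the hippocampus these kinases are known for their part in transmitter release and in long-lasting changes of synaptic strength. Prkcz is a special case, since brain tissue also uses an internal start site of this gene for PKMζ, a form of the kinase without its regulatory part.

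Because these start sites lie at different places of 1 gene, their surroundings are shown for Prkcz. RefSeq lists 3 start sites with a window of 250 bases before and 50 bases after the start (GRCm38.p6, minus strand). The first belongs to the longest gene model and lies at chr4:155361379-155361678. The second, within the gene, lies 15639 bases further along, at chr4:155345740-155346039. Capitals mark the GC box, GGGCGG, and the core of the cyclic AMP response element, TGACG, on either strand, and overlapping cores run together as the full palindrome TGACGTCA.
Prkcz first start: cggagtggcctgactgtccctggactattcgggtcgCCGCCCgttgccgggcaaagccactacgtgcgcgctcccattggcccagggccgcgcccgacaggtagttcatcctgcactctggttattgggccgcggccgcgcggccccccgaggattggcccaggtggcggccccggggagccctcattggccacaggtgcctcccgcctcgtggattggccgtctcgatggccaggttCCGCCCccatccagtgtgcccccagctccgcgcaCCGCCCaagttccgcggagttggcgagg
Prkcz second start: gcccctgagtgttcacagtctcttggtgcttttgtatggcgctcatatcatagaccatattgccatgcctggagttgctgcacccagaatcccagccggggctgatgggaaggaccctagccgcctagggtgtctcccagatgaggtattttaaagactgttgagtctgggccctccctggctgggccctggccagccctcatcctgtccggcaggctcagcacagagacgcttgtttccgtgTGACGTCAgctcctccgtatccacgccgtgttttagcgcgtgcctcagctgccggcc
The window of the first start was 71% G or C and held 3 GC boxes and no TGACG. The window of the second start was 59.3% G or C and held 1 full TGACGTCA and no GC box. The third start, 16679 bases from the first, had 2 GC boxes and 1 TGACG in a window that was 58.3% G or C. Of 32851 RefSeq mouse windows of this length, 35.7% held a GC box, 20.8% a TGACG and 1.79% the full TGACGTCA. These matches are letters in a window and were not tied to any measurement. The probe sets of Prkcz could not be assigned here to PKCζ or PKMζ. Of the other members, Prkca, Prkcb, Prkcd, Prkcq and Prkci also had RefSeq windows, 9 windows for 6 of the 8 genes with Prkcz included.

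Values are log2 RMA intensities, that is, brightness summarised per probe set, and differences are UBB+1 tg minus wild type on this log2 scale. Per-animal values follow the order tg270, tg271, tg273, tg274, tg276 and tg277 in UBB+1 tg mice and wt287, wt289, wt290, wt291 and wt321 in wild-type mice, with wt331 added on MOE430B. The labels were checked with a MOE430A probe set that reads a part of the transgene's promoter and was left out of all tests. It read 8.45 to 9.34 in UBB+1 tg mice, against 6.41 to 6.85 in wild-type mice, without overlap. All 5 CA3 markers were measured, and of them Bok, Cpne4, Iyd and Grik4 had means of 10.87, 9.08, 8.90 and 7.55 in UBB+1 tg mice, against 10.97, 8.74, 8.48 and 7.68 in wild-type mice, while Nnat was dim, at 5.16 in UBB+1 tg and 6.05 in wild-type mice. Of 5 dentate granule markers, Prox1, Tdo2 and Dsp were dim (Prox1 at 3.62 in UBB+1 tg and 3.58 in wild-type mice), while Lct was at 7.15 in UBB+1 tg and 7.56 in wild-type mice and C1ql2 at 6.34 in UBB+1 tg and 6.44 in wild-type mice. Of 5 CA2 markers, 4 were measured. Necab2, Pcp4 and Rgs14 had means of 9.26, 8.90 and 8.66 in UBB+1 tg mice, against 9.16, 8.57 and 8.39 in wild-type mice. Amigo2, on MOE430B, was lower, at 5.87 in UBB+1 tg and 5.94 in wild-type mice. Of 5 CA1 markers, 4 were measured. Wfs1, Mpped1, Pou3f1 and Fibcd1 had means of 7.51, 7.31, 6.17 and 5.22 in UBB+1 tg mice, against 7.60, 7.26, 6.33 and 5.16 in wild-type mice.

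The arrays fell into 3 sets by their correlation across all probe sets, and these sets followed the 3'-5' difference, the log2 signal of the 3' minus that of the 5' probe sets of the Gapdh and β-actin controls. On MOE430A it was 2.65 to 3.43 in the low set (tg271, wt287, wt290), 4.44 to 4.62 in the middle set (tg273, tg274, tg276, tg277, wt291, wt321) and 6.05 to 6.10 in the high set (tg270, wt289). The MOE430B arrays of the same animals fell into the same sets, with wt331 in the middle one. The 3'-5' difference averaged 4.61 ± 0.83 in UBB+1 tg mice and 4.10 ± 1.45 in wild-type mice on MOE430A (SD, n = 6 and 5, exact permutation test, two-sided, p = 0.435). Array sets held a median of 47.6% of the variance of the PKC probe sets on MOE430A, where all probe sets had 39.6%, and 63.1% on MOE430B, where all probe sets had 31.5%. Values by array set are given beside the larger differences between genotypes. In the low and high sets, each such difference rests on 1 UBB+1 tg mouse.

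No PKC probe set passed the false discovery rate of 10% in limma. Nor did any other probe set on MOE430A, 0% of 22625, or on MOE430B, 0% of 22511. At an unadjusted p under 0.05, limma called none of the 13 PKC probe sets on MOE430A, against 3.48% of all probe sets (1.91% higher and 1.57% lower in UBB+1 tg mice), and none of the 7 on MOE430B, against 3.05% (1.52% higher and 1.53% lower). In no PKC probe set were the genotypes free of overlap, as they were in 0.234% of all probe sets on MOE430A and 0.142% on MOE430B. UBB+1 tg mice had the higher mean in 9 of 13 PKC probe sets on MOE430A (all probe sets, 51.7%) and in 5 of 7 on MOE430B (all probe sets, 47.6%), with median differences of 0.14 and 0.03. Without wt289, 4 of the 13 on MOE430A reached an unadjusted p under 0.05, against 5.73% of all probe sets, and without tg270, 1 of the 7 on MOE430B did, against 3.6%. The 95% intervals of all 20 differences included 0, and 13 lay within a 1.5-fold change in either direction. The other 7 reached further, with the lowest bound at a fold of 0.577, for Prkcz 1454902_at, and the highest at 2.14, for Prkcd 1422847_a_at. For these 7 probe sets, which include 2 of Prkca and 1 each of Prkcb, Prkcd, Prkce, Prkci and Prkcz, this number of animals leaves differences of more than 1.5-fold within the interval.

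**Figure D1:**
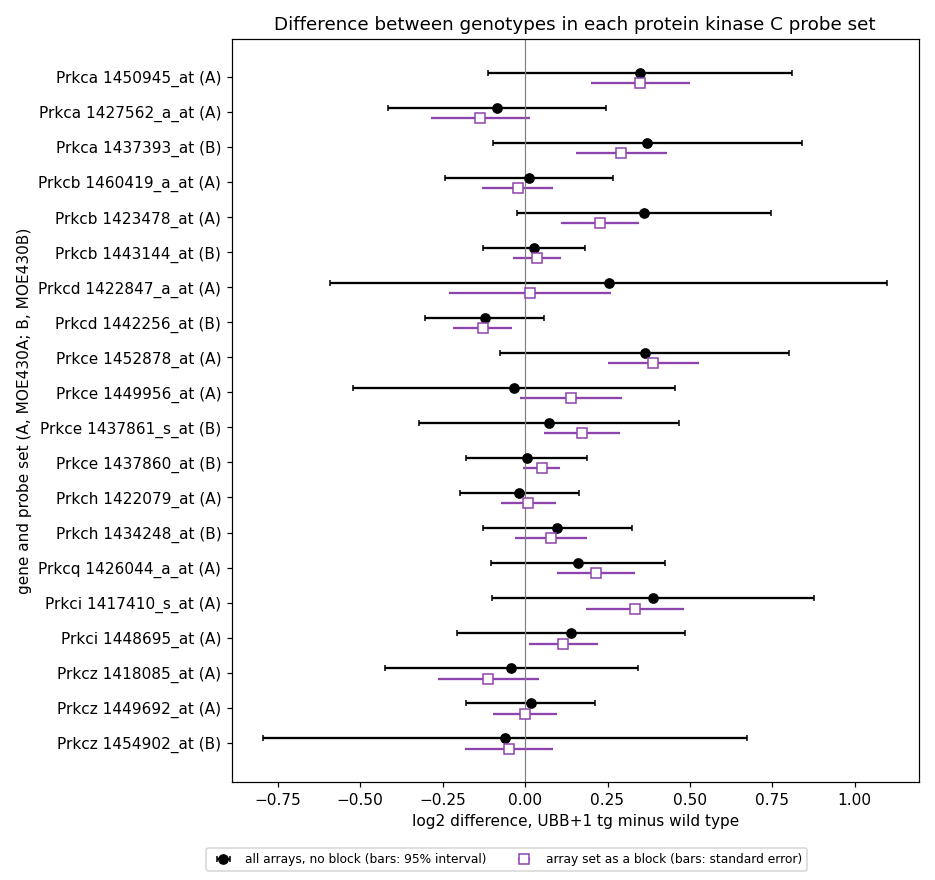
UBB+1 tg minus wild-type difference in log2 RMA intensity (x axis) for the 20 PKC probe sets (y axis). Black points give all arrays with 95% intervals, each of which includes 0, and open squares give the fit with the array set as a block, with its standard error.

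Prkca, on chromosome 11 (107933387 to 108343888, GRCm38.p6), encodes PKCα, and its 3 probe sets did not move together. Probe set 1450945_at on MOE430A read 8.85, 8.30, 8.41, 7.73, 7.90 and 8.16 in UBB+1 tg mice, against 7.43, 8.38, 7.69, 7.87 and 8.01 in wild-type mice. It was highest in tg270 and lowest in wt287, the genotypes overlapped, and 5 of 6 UBB+1 tg mice lay above the wild-type mean. The means were 8.23 ± 0.39 in UBB+1 tg and 7.88 ± 0.35 in wild-type mice (SD), a difference of 0.35 (SE 0.21, limma adjusted p = 0.984) that an exact permutation test gave a two-sided p of 0.162. The array sets differed here by more than the genotypes, at 7.81 in the low, 8.01 in the middle and 8.61 in the high set. Within these sets the difference was 0.74, 0.11 and 0.47. A limma fit with the sets as a block gave 0.35 (SE 0.15, unadjusted p = 0.0400, adjusted p = 0.687). Taking the 3'-5' difference as a covariate instead gave a smaller difference, 0.23 (SE 0.16, unadjusted limma p = 0.184).

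Probe set 1437393_at of Prkca, on MOE430B, had a difference of the same size with another order of animals. It read 10.83, 11.77, 11.61, 11.80, 12.13 and 12.17 in UBB+1 tg mice, against 11.02, 11.13, 11.00, 11.73, 11.59 and 11.62 in wild-type mice. Here tg270, which was the highest animal for 1450945_at, was the lowest of all 12. The mean difference was 0.37 (SE 0.22, limma adjusted p = 1.00, exact permutation p = 0.160, two-sided), and it was 0.76, 0.28 and −0.29 in the low, middle and high sets. Without tg270, but with wt289 of the same high array set, the difference was 0.55, at an unadjusted limma p of 0.00593. That was the smallest unadjusted p of any PKC probe set under any alternative. The lowest adjusted limma p of 1437393_at over all alternatives was 0.787. The third Prkca probe set, 1427562_a_at, was dim and ranged between 5.36 and 6.07 in UBB+1 tg and between 5.46 and 6.13 in wild-type mice, with 1 of 6 UBB+1 tg mice above the wild-type mean.

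Prkcb, on chromosome 7 (122289104 to 122634402), encodes both forms of PKCβ and is among the genes that the study itself chose from these samples, so that its values are not independent of that choice. Probe set 1423478_at had the smallest p of all 20. It read 10.65, 10.50, 11.18, 10.64, 10.98 and 10.77 in UBB+1 tg mice, against 10.03, 10.70, 10.03, 10.81 and 10.56 in wild-type mice. All 6 UBB+1 tg mice lay above the wild-type mean, and the lowest animals were wt287 and wt290, both of the low array set, at 10.03 each. The means were 10.79 ± 0.25 in UBB+1 tg and 10.43 ± 0.37 in wild-type mice (SD), a difference of 0.36 (SE 0.18, limma unadjusted p = 0.0638 and adjusted p = 0.984) with an exact permutation p of 0.108, two-sided, or 0.541 after adjustment over the 20 probe sets. By array set (low, middle, high) the difference was 0.47, 0.21 and −0.05, and with the sets as a block it was 0.23 (unadjusted limma p = 0.0847). Taking the 3'-5' difference as a covariate instead gave 0.28 (SE 0.15, unadjusted limma p = 0.0961).

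The other MOE430A probe set of Prkcb, 1460419_a_at, gave nearly equal means of 11.22 ± 0.17 in UBB+1 tg and 11.20 ± 0.22 in wild-type mice (SD). Its animals ranged between 10.93 and 11.40 in UBB+1 tg and between 10.93 and 11.44 in wild-type mice, and the difference of 0.01 (SE 0.12) turned to −0.19 within the middle array set. The MOE430B probe set 1443144_at was dim, at 4.60 ± 0.11 in UBB+1 tg and 4.58 ± 0.11 in wild-type mice (SD). The differences of these probe sets, 0.01 and 0.03, stand beside that of 0.36 for 1423478_at of the same gene.

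Among the calcium-independent isoforms, Prkce on chromosome 17 (86167785 to 86657919) encodes PKCε, a kinase of presynaptic terminals. Its probe set 1452878_at read 11.64, 11.41, 11.12, 10.78, 10.99 and 10.98 in UBB+1 tg mice, against 10.27, 11.40, 10.71, 10.77 and 10.81 in wild-type mice. Wild-type animal wt289 lay among the highest UBB+1 tg mice, and the other wild-type mice, at 10.27 to 10.81, overlapped with tg274 alone. The difference was 0.36 (SE 0.20, limma adjusted p = 0.984, exact permutation p = 0.126, two-sided), with 5 of 6 UBB+1 tg mice above the wild-type mean. By array set it was 0.92, 0.18 and 0.24 (low, middle, high). The fit with the sets as a block gave 0.39 (SE 0.14, unadjusted limma p = 0.0180, adjusted p = 0.685). Taking the 3'-5' difference as a covariate instead gave a smaller difference, 0.26 (SE 0.16, unadjusted limma p = 0.141). The other probe sets of Prkce differed by −0.03 (1449956_at, SE 0.22), 0.07 (1437861_s_at, SE 0.18) and 0.01 (1437860_at, SE 0.08), the last of them near the bottom of the array's range. For 1437861_s_at the values were 8.66 to 9.55 in UBB+1 tg and 8.71 to 9.48 in wild-type mice, lying lower in the middle set, at 8.89, than in the low and high sets, at 9.44 and 9.32.

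Prkcd, on chromosome 14 (30595353 to 30626414), encodes PKCδ, a kinase known for its role in cell death, and its probe set 1422847_a_at had the largest SD of the 20, 0.77 in UBB+1 tg and 0.61 in wild-type mice. It read 7.15, 7.50, 7.74, 8.65, 8.74 and 9.03 in UBB+1 tg mice, against 7.67, 7.19, 7.79, 7.90 and 8.87 in wild-type mice. The lowest animal of each genotype, tg270 and wt289, belonged to the high array set, and the sets averaged 7.65, 8.49 and 7.17. The difference of 0.25 (SE 0.39) was 0.02 with the array set as a block. Probe set 1442256_at on MOE430B lay the other way, at 6.22 ± 0.15 in UBB+1 tg and 6.34 ± 0.12 in wild-type mice (SD), a difference of −0.12 (SE 0.08, unadjusted limma p = 0.162) with 1 of 6 UBB+1 tg mice above the wild-type mean. By array set it was −0.37, −0.03 and −0.14 (low, middle, high).

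Prkcq, on chromosome 2 (11171905 to 11301226), encodes PKCθ, which is best known from T cells, and Prkch, on chromosome 12 (73584796 to 73778185), encodes PKCη, best known from epithelia. Prkcq 1426044_a_at read 6.82, 6.82, 6.51, 7.00, 6.43 and 6.66 in UBB+1 tg mice, against 6.86, 6.54, 6.48, 6.46 and 6.39 in wild-type mice. Its difference of 0.16 (SE 0.12, unadjusted limma p = 0.208) was 0.15, 0.22 and 0.28 in the low, middle and high sets, and the genotypes overlapped over most of their range. Prkch 1434248_at on MOE430B was at 6.80 ± 0.18 in UBB+1 tg and 6.71 ± 0.19 in wild-type mice (SD), and its difference was −0.07, −0.0033 and 0.56 in the low, middle and high sets, the last between 1 animal of each genotype. Prkch 1422079_at was dim, with values of 4.25 to 4.70 in UBB+1 tg and 4.39 to 4.52 in wild-type mice.

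**Figure D2:**
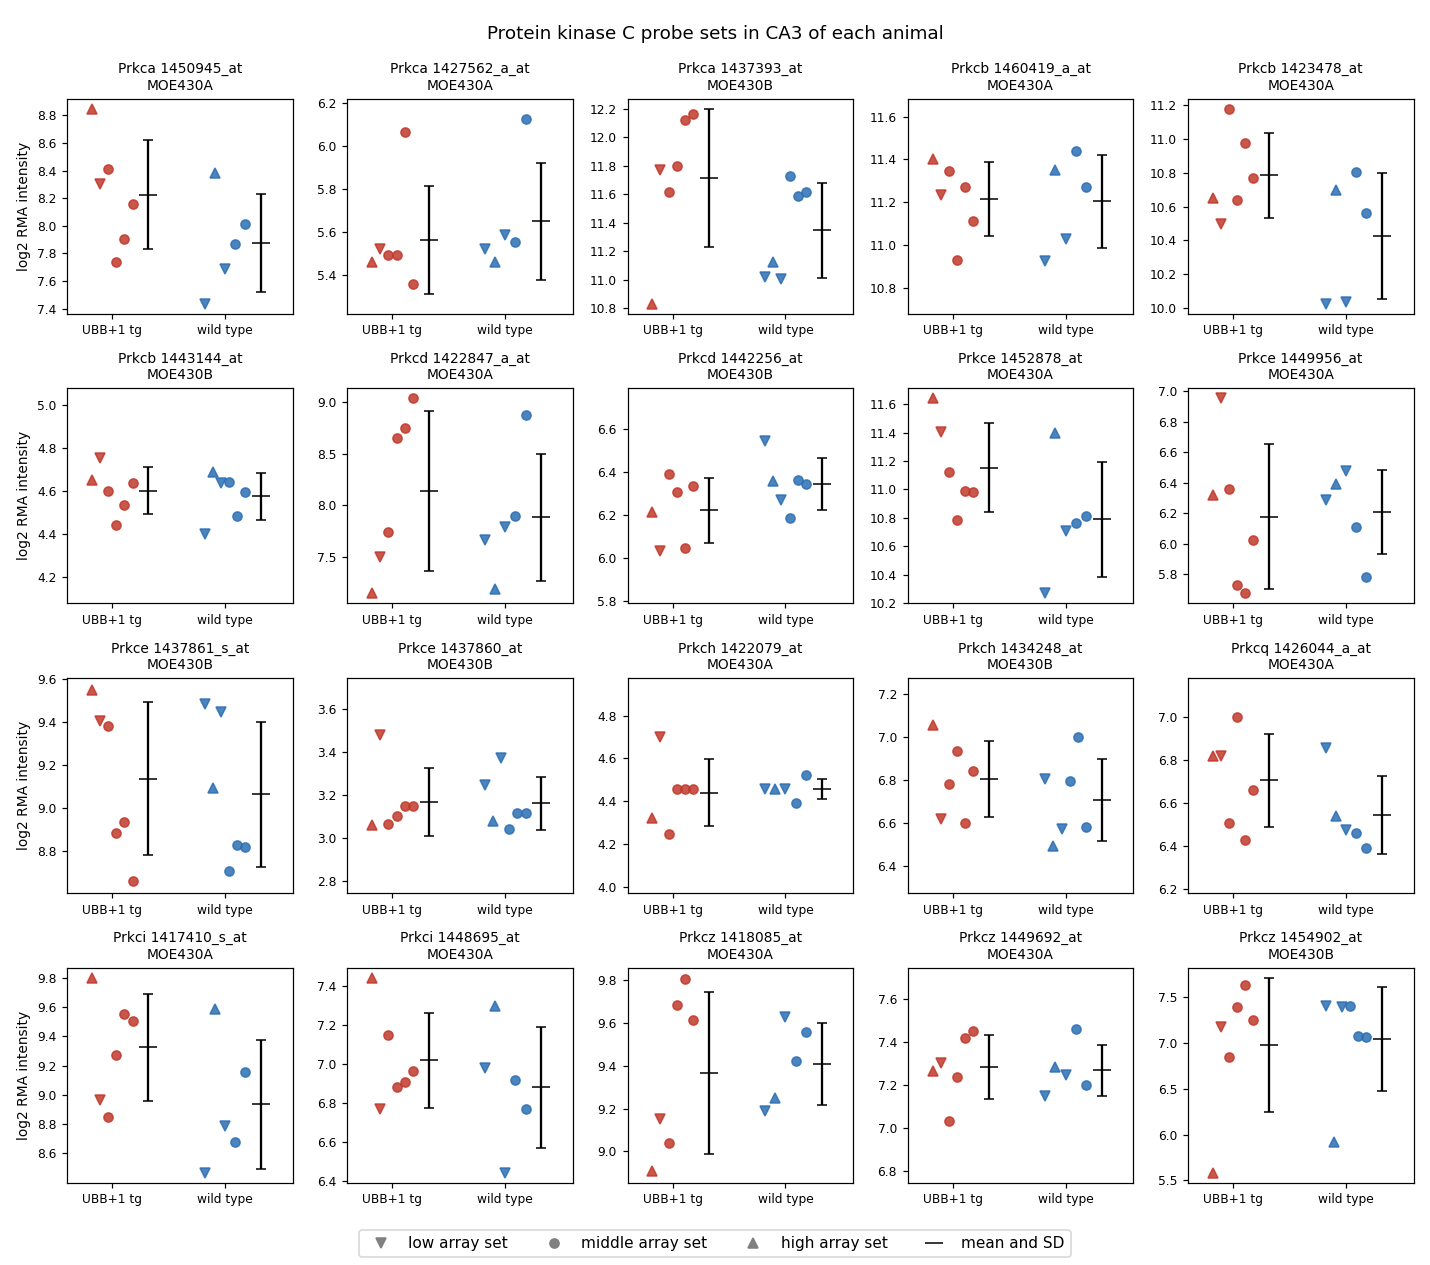
Log2 RMA intensity (y axis) of each PKC probe set in each animal, UBB+1 tg in red and wild type in blue, with mean and SD beside the points. Marker shapes give the array set. The genotypes overlapped in all 20 panels, and in Prkcz 1454902_at the high-set animals lay at 5.58 (UBB+1 tg) and 5.92 (wild type), below all others.

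Of the atypical isoforms, Prkci, on chromosome 3 (30995742 to 31052740), encodes PKCι, a part of the cell polarity complex. Probe set 1417410_s_at had the largest difference of the 20. It read 9.80, 8.96, 8.85, 9.27, 9.55 and 9.51 in UBB+1 tg mice, against 8.47, 9.59, 8.79, 8.68 and 9.15 in wild-type mice. The highest animal of each genotype was that of the high array set, tg270 and wt289. Means were 9.32 ± 0.37 in UBB+1 tg and 8.94 ± 0.44 in wild-type mice (SD), and the difference was 0.39 (SE 0.22, limma adjusted p = 0.984, exact permutation p = 0.143, two-sided). It pointed the same way within each array set, at 0.34, 0.38 and 0.21, and the sets themselves averaged 8.74, 9.17 and 9.69. The low set held 1 UBB+1 tg and 2 wild-type mice, and the high set 1 of each genotype. With the sets as a block the difference was 0.33 (SE 0.15, unadjusted limma p = 0.0476, adjusted p = 0.690). Taking the 3'-5' difference as a covariate instead gave a smaller difference, 0.25 (SE 0.15, unadjusted limma p = 0.127). The second probe set, 1448695_at, had a difference of 0.14 (SE 0.16) with 5 of 6 UBB+1 tg mice above the wild-type mean, and of 0.06, 0.13 and 0.15 by array set (low, middle, high).

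Prkcz, on chromosome 4 (155260118 to 155361428), encodes PKCζ and, from the internal start, PKMζ. Its 3 probe sets had differences near 0, at −0.04 (1418085_at, SE 0.17), 0.02 (1449692_at, SE 0.09) and −0.06 (1454902_at, SE 0.34). Probe set 1418085_at read 8.91, 9.15, 9.04, 9.68, 9.80 and 9.61 in UBB+1 tg mice, against 9.19, 9.25, 9.62, 9.42 and 9.56 in wild-type mice. The range of the UBB+1 tg mice enclosed that of the wild-type mice. Probe set 1454902_at on MOE430B read 5.58, 7.18, 6.85, 7.40, 7.64 and 7.26 in UBB+1 tg mice, against 7.41, 5.92, 7.39, 7.41, 7.08 and 7.06 in wild-type mice. The animals of the high array set, tg270 and wt289, lay apart from all others of both genotypes, and the sets averaged 7.32, 7.24 and 5.75 (low, middle, high).

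With the array set as a block, 3 of the 13 PKC probe sets on MOE430A (1 each of Prkca, Prkce and Prkci) had an unadjusted limma p under 0.05, where 7.19% of all probe sets of the array did. None of the 7 on MOE430B did, where 5.06% of all probe sets did. The plot against the 3'-5' difference sets the values of 6 PKC probe sets beside this property of the arrays.

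**Figure D3:**
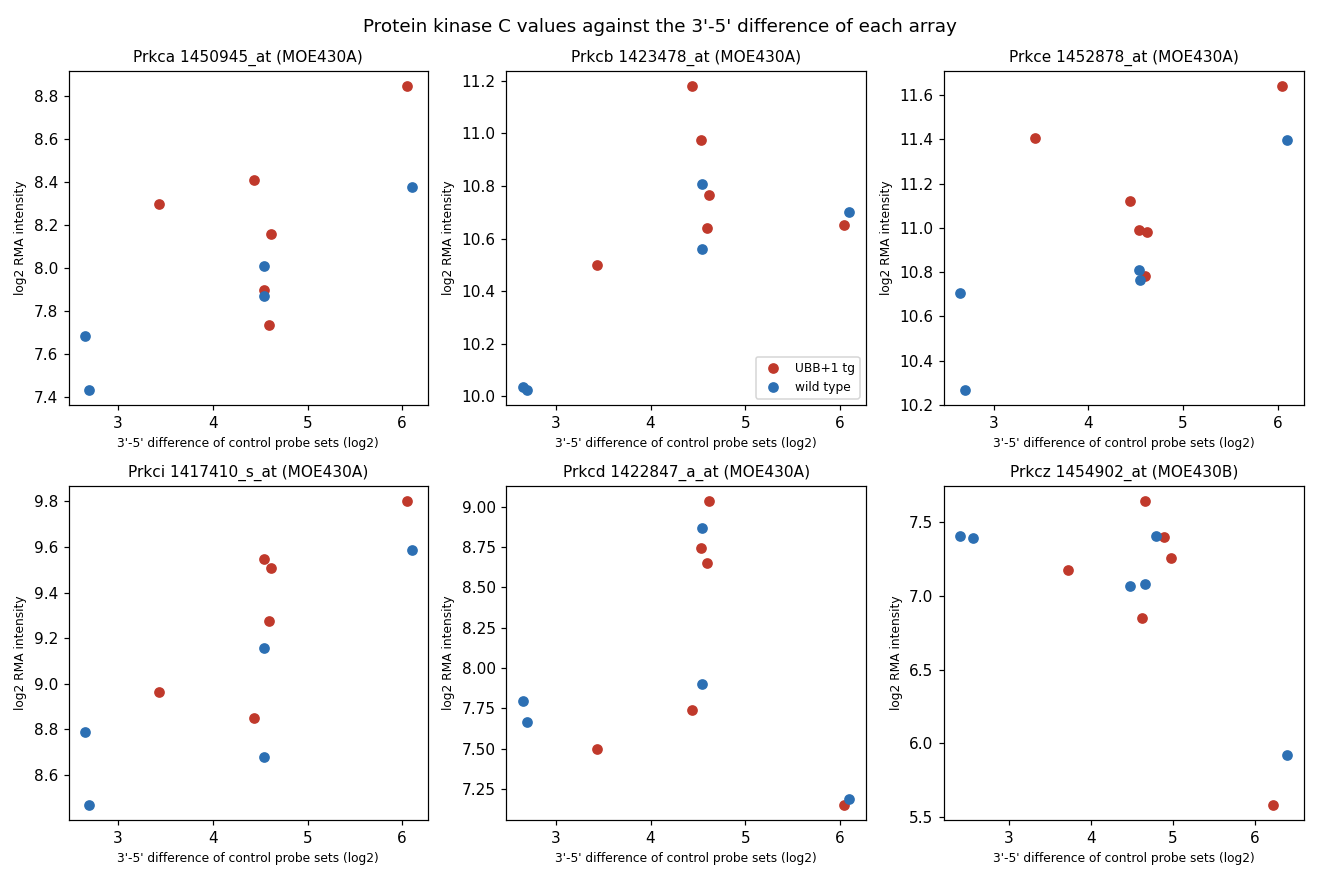
Log2 RMA intensity (y axis) of 6 PKC probe sets against the 3'-5' difference of the control probe sets of the same array (x axis, log2), 1 point an animal, UBB+1 tg in red and wild type in blue. The 2 high-set animals on the right, 1 of each genotype, were the highest for Prkci and the lowest for Prkcd and Prkcz.

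Over the 11 animals on both arrays, Pearson's r was above 0 in 13 of 18 pairs of probe sets of 1 gene (median 0.31, range −0.31 to 0.69) and in 79 of 172 pairs of different genes (median −0.04, range −0.82 to 0.94). Some genes stood outside this picture. Pearson's r between Prkca 1450945_at and 1437393_at was −0.13, and it was −0.15 over the 6 animals of the middle array set. Between Prkca 1450945_at and Prkce 1452878_at it was 0.94 (middle set, 0.82). The last value was the highest of all 172 pairs of different genes. For the probe sets of Prkcb on MOE430A it was 0.63 (middle set, 0.46), for those of Prkci 0.52 (middle set, −0.29) and for those of Prkcd −0.02 (middle set, −0.06). Prkcz 1418085_at and 1454902_at, with 0.68 (middle set, 0.82), were the most alike of the pairs within Prkcz. Prkcd 1422847_a_at and Prkcz 1418085_at had 0.81 in all animals and in the middle set. These coefficients are descriptions, since all points share the array sets and few animals stand behind each.

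The probe sets of other genes most like each PKC gene were found by the same measure over all arrays of a kind. For Prkca 1450945_at they were those of Cdc5l, Npy2r and Tlr8 (r = 0.96, 0.95 and 0.95, n = 11), and for Prkca 1437393_at those of Wipf3, Gnaq and Zbtb20 (r = 0.95, 0.94 and 0.94, n = 12). For Prkcb 1460419_a_at they were those of Dhx32, Tnrc6a and Serbp1 (r = 0.93, 0.91 and 0.90). For Prkce 1452878_at they were those of Gpatch8, Zfp106 and Prkca, at 0.94 each. Gnaq and Prkca belong to the PKC pathway, but how often such genes fall among nearest patterns was not tested. Prkca 1450945_at and Prkce 1452878_at also both rose with the 3'-5' difference of the arrays (r = 0.72 and 0.69). For Prkcd 1422847_a_at they were those of Smim10l1, Tra2b and Rpn1 (r = 0.97, 0.97 and 0.96), for Prkcq those of Il1r2, Rab40c and 2310030G06Rik (r = 0.90, 0.89 and 0.88) and for Prkch 1434248_at those of Gprin2, Nol9 and Clec1a (r = 0.84, 0.84 and 0.82, n = 12). For Prkci 1417410_s_at they were those of Mkln1, Tmem30a and Fbxo3 (r = 0.94, 0.93 and 0.93). For Prkcz they were those of Aldh2, Cdyl and Cfap20 (1418085_at, r = 0.93, 0.93 and 0.91) and of Brsk2, Tmem179 and Grik4 (1454902_at, r = 0.96, 0.96 and 0.94, n = 12). Within the middle array set, r was lower for several of them. It was 0.33 for Zfp106, 0.62, 0.65 and 0.63 for Brsk2, Tmem179 and Grik4, 0.74 for Tlr8, and 0.76 for Wipf3 and for Gnaq. In Prkcz 1454902_at, the 2 high-set animals lay apart from all others, and the likeness over all arrays includes them.

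Around the isoforms themselves, 8 lists of genes were followed from the receptors' G proteins to the substrates, with 1 probe set a gene. Of 80 genes listed, 72 were measured, 33 with a higher and 39 with a lower mean in UBB+1 tg mice, and their median difference was −0.02, where all 18192 genes had 0.00. None of the 72 passed the false discovery rate in limma (0% of all genes). At an unadjusted p under 0.05 there were 4 of 72 (5.56%), where 3.62% of all genes were, with 2 higher (1.92% of all genes) and 2 lower (1.69%) in UBB+1 tg mice.

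**Figure D4:**
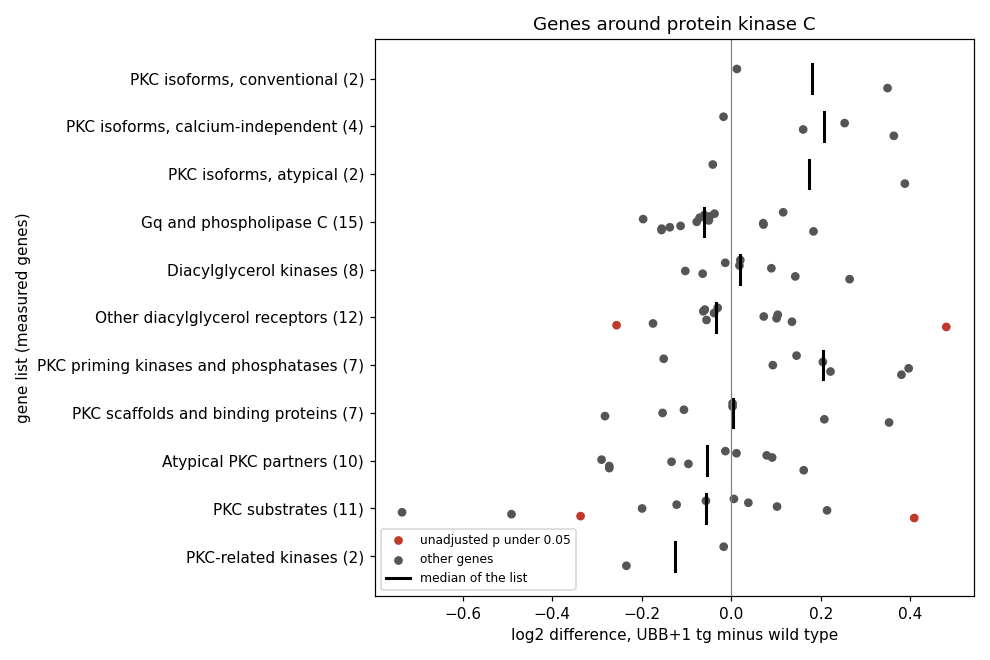
Difference in log2 RMA intensity (x axis, UBB+1 tg minus wild type) of each measured gene in the isoform classes and in 8 lists around PKC (y axis, number of measured genes in brackets). Vertical bars are list medians, and red points the 4 genes with an unadjusted p under 0.05. Medians ran between −0.13 for the PKC-related kinases and 0.21 for the calcium-independent isoforms.

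Upstream, the 15 genes of Gq proteins and phospholipase C, which make the diacylglycerol, had a median difference of −0.06, with 4 higher and 11 lower in UBB+1 tg mice. Gnaq, the Gq α subunit, was at −0.16 (SE 0.09) on MOE430A with 0 of 6 UBB+1 tg mice above the wild-type mean, whereas its MOE430B probe set 1429559_at was at 0.39. Plch1 and Plcb2, both phospholipases C, were at 0.18 (SE 0.09) and −0.16 (SE 0.13). Diacylglycerol kinases, which remove the messenger, had a median of 0.02 over 8 measured genes, and Dgka was at 0.26 (SE 0.13) with all 6 UBB+1 tg mice above the wild-type mean. Dgke and Dgkk were at 0.14 (SE 0.13) and −0.06 (SE 0.10). None of the genes of both lists had an unadjusted p under 0.05.

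The list of other diacylglycerol receptors and their relatives, 12 genes, had 2 with an unadjusted p under 0.05. Unc13b, which encodes Munc13-2, a priming factor of synaptic vesicles, ranged between 7.50 and 8.03 in UBB+1 tg and between 6.64 and 7.75 in wild-type mice, a difference of 0.48 (SE 0.20, unadjusted limma p = 0.0370, adjusted p = 0.984). Rasgrp2, an exchange factor for Rap proteins, ranged between 5.13 and 5.61 in UBB+1 tg and between 5.46 and 5.88 in wild-type mice, a difference of −0.26 (SE 0.12, unadjusted limma p = 0.0495). Both overlapped between genotypes. Rasgrp4, an exchange factor of the same family as Rasgrp2, was at −0.17 (SE 0.10).

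Of the kinases and phosphatases that set the priming phosphorylation of PKC, 6 of 7 had a higher mean in UBB+1 tg mice, with a median of 0.20 and none at an unadjusted p under 0.05. Phlpp2, a phosphatase that acts on PKC and Akt, was at 0.38 (SE 0.20), Pdpk1, the kinase of the activation loop, at 0.40 (SE 0.30), and Mapkap1, a subunit of mTORC2, at 0.22 (SE 0.14). Scaffolds, such as Akap13 at 0.35 (SE 0.22) and Pick1, a partner of PKCα, at 0.21 (SE 0.13), had a median of 0.00 over 7 genes, with Cavin3, a binding protein of PKCδ, at −0.28 (SE 0.18). Partners of atypical PKC had a median of −0.05 over 10 genes. Among them Pard3 and Pard6a, of the polarity complex, were at 0.16 (SE 0.10) and −0.27 (SE 0.25), and Sqstm1, which binds atypical PKC and ubiquitin, was at −0.27 (SE 0.23).

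Substrates of PKC, 11 genes, had a median of −0.06 and 1 gene at an unadjusted p under 0.05 in each direction. Add3, the γ subunit of the membrane skeleton protein adducin, ranged between 7.57 and 7.83 in UBB+1 tg and between 7.00 and 7.54 in wild-type mice, the 1 gene named here without overlap of the genotypes (0.234% of MOE430A probe sets). Its difference was 0.41 (SE 0.10, unadjusted limma p = 0.00174, adjusted p = 0.984). Nrgn, the calmodulin-binding protein neurogranin of dendritic spines, ranged between 10.87 and 11.33 in UBB+1 tg and between 11.17 and 11.87 in wild-type mice, a difference of −0.34 (SE 0.13, unadjusted limma p = 0.0256, adjusted p = 0.984), with 0 of 6 UBB+1 tg mice above the wild-type mean. Add2, another adducin subunit, was at −0.49 (SE 0.31). The PKC-related kinases Pkn2 and Pkn3 were at −0.23 (SE 0.28) and −0.02 (SE 0.11).

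Markers of other cells in the cut tissue were set beside these values. Median differences were −0.02 for interneurons (8 genes), 0.00 for astrocytes (6) and −0.12 for microglia (7). They were 0.13 for endothelium (6), 0.01 for choroid plexus (4) and 0.05 for thalamus (4). No gene of these lists had an unadjusted limma p under 0.05. The interneuron markers, 4 higher and 4 lower in UBB+1 tg mice, ran from −0.82 for Sst to 0.30 for Gad1. All 5 measured oligodendrocyte markers of 6 listed had a higher mean in UBB+1 tg mice, none at an unadjusted p under 0.05, and their summed level was 12.48 to 12.96 in UBB+1 tg and 12.23 to 12.59 in wild-type mice. Mbp was the brightest of them, at 12.31 in UBB+1 tg and 12.09 in wild-type mice. Mog and Cldn11 were dim, with differences of 0.03 (SE 0.22) and 0.04 (SE 0.16). Of 5 neuronal markers, 3 had a lower mean in UBB+1 tg mice (median difference −0.16). Map2 was at −0.18 (unadjusted limma p = 0.0321, adjusted p = 0.984, 0 of 6 UBB+1 tg mice above the wild-type mean), Slc17a7 at −0.52 and Rbfox3 at −0.16, while Syt1 was at 0.39 and Snap25 at 0.37. The probe set of Map2 was dim, with means of 4.94 in UBB+1 tg and 5.12 in wild-type mice, brighter than 22.6% of MOE430A probe sets. The summed level of the 4 on MOE430A, of which Snap25 was the brightest, was 11.67 to 12.39 in UBB+1 tg and 11.15 to 12.26 in wild-type mice. The part of these markers and of the array sets in the PKC values was not tested beyond the fits given.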

How the data were processed

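Expression was measured in laser-cut CA3 of both genotypes on Affymetrix MOE430A and MOE430B arrays, with 1 colour. The authors deposited RMA values, background-corrected, quantile-normalised and summarised to 1 value a probe set, with MOE430A and MOE430B handled apart. The deposited MOE430A values are intensities on a linear scale in whole numbers, and the deposited MOE430B values are on the log2 scale. The RMA version is not given in the sources used here. The methods and the sample labels name different versions of the RNA kit. Precision is limited by how many arrays there are. The methods' single-probe analysis (ChipInspector) was not repeated.

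MOE430A values were turned to log2. All probe sets except 64 controls on each array and the probe set of the transgene's promoter were fitted in limma 3.58.1 (lmFit, eBayes; R 4.3.3), with Benjamini-Hochberg adjustment within each array and a false discovery rate of 10%, the methods' test. Single values were also compared with exact two-sided permutation tests over animals, whose smallest possible p was 0.00216. Each array is 1 animal, so p-values rest on the spread between animals. With 1 array an animal, that spread cannot be told apart from differences in cutting, amplification and hybridisation. The scripts were tested on simulated data. Array sets came from complete-linkage clustering on 1 minus Pearson's r, cut at 3 sets.

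All probe sets of the 8 genes are named. In each pathway list, up to 3 genes with the smallest unadjusted p are named, using the brightest probe set of a gene, from MOE430A where it has one there, and for likeness the 3 probe sets with the highest r. Members and lists were chosen with earlier results of these data known. Gene positions and promoter windows are from RefSeq on GRCm38.p6. Alternatives were other normalisations and floors, filters on dim or cross-hybridising probe sets, other variance and array weights, the 3'-5' difference as a covariate, the array set as a block or the middle set alone, averaged probe sets, and each animal left out.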

Additional observations from a re-analysis of the deposited data

Results flagged for a closer look

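Of 40 groups of 5 or 6 animals, 1 for each PKC probe set and genotype, 4 held an animal far from the others by Dixon's test, which flags about 1 in 20 groups by chance. For Prkca 1427562_a_at these were tg276 at a log2 intensity of 6.07, where the other UBB+1 tg mice had 5.36 to 5.52, and wt321 at 6.13, where the other wild-type mice had 5.46 to 5.58. Both belonged to the middle array set. For Prkce 1437860_at it was tg271, of the low array set, at 3.48, where the others had 3.06 to 3.15. For Prkcz 1454902_at it was wt289 at 5.92, where the other wild-type mice had 7.06 to 7.41, and tg270, the UBB+1 tg animal of the same high array set, was at 5.58.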

How the results depend on the processing

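No PKC probe set passed the false discovery rate of 10%, or of 5%, under any alternative, and 383 of 432 values of single probe sets kept their sign. At an unadjusted p under 0.05, the count of PKC probe sets on MOE430A was 0, 2 with array weights, 3 with the array set as a block and 0 to 4 with 1 animal left out (1 without tg271 or wt291, 4 without wt289), and on MOE430B it was 0, or 0 to 1 with 1 animal left out (1 without tg270). Over all probe sets, that count on MOE430A was 788, 356 without dim probe sets, 2343 with array weights, 1627 with the block and 448 to 1507 with 1 animal left out (448 without wt287, 499 without wt290, 1297 without wt289, 1507 without tg271). On MOE430B it was 687, 369 without dim probe sets, 1381 with weights, 1140 with the block, 1221 in the middle set and 526 to 1429 with 1 animal left out (1429 without tg271). On that array 1 probe set, of no PKC gene, passed 10% without dim probe sets, with the 3'-5' covariate and without wt291 (0 to 1 with 1 animal left out). The count of 4 of 72 pathway genes was 9 with weights, 10 with the block and 2 in the middle set. With 1 animal left out it was 2 to 7 (2 without tg270, tg273, wt287 or wt290, 7 without wt289). Over all probe sets of these genes it was 9 of 183 (4.92%). The share of all MOE430A probe sets moved too, from 3.48% to 10.4% with weights, 7.19% with the block and 5.17% in the middle set. It was 1.98% to 6.66% with 1 animal left out (5.73% without wt289). On MOE430B the share was 3.05%, 6.13% with weights, 5.06% with the block and 5.42% in the middle set. The cause was not tested.

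Signs turned only where the difference in all animals was small. With array weights they turned for Prkcz 1418085_at (0.082), Prkce 1437860_at (−0.023), Prkcb 1443144_at (−0.032) and Prkcz 1454902_at (0.076). With the 3'-5' covariate they turned for Prkch 1422079_at (0.0015), Prkce 1449956_at (0.012), Prkcb 1460419_a_at (−0.042) and Prkcz 1454902_at (0.18). With the array set as a block they turned for Prkch 1422079_at (0.0094), Prkce 1449956_at (0.14) and Prkcb 1460419_a_at (−0.023). In the middle set they turned for Prkcz 1418085_at (0.045), Prkcz 1449692_at (−0.044), Prkce 1449956_at (0.00012), Prkcb 1460419_a_at (−0.19), Prkch 1434248_at (−0.0033), Prkcb 1443144_at (−0.021) and Prkcz 1454902_at (0.10). With 1 animal left out, signs turned in some of the fits for the probe sets that follow, given with their range over all these fits. The values ran from −0.19 to 0.034 for Prkca 1427562_a_at, −0.0075 to 0.060 for Prkcb 1443144_at and −0.057 to 0.071 for Prkcb 1460419_a_at. They ran from −0.057 to 0.047 for Prkce 1437860_at, −0.0096 to 0.17 for Prkce 1437861_s_at and −0.19 to 0.068 for Prkce 1449956_at. For Prkch 1422079_at the range was −0.069 to 0.021. For Prkcz it was −0.13 to 0.051 (1418085_at), −0.016 to 0.067 (1449692_at) and −0.29 to 0.22 (1454902_at).

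No paired analysis was possible because the genotypes share no animal number in the labels. Probe sets left out by a filter, or at the floor in all animals, gave no value under that alternative. Dim probe sets can show little of a change, and the tissue was amplified before hybridisation, which RMA does not undo.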
